A study of Homo sapiens with 12 samples.

Results

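HLA class II and its master regulator were followed by gene symbol in 10 genes: CIITA, CD74, HLA-DRA, HLA-DRB1, HLA-DPA1, HLA-DPB1, HLA-DQA1, HLA-DQB1, HLA-DMA and HLA-DMB. All 10 were found among the 17589 genes of the table, and 11 transcripts of CIITA were in the transcript table. RNA came from cells labelled as unstimulated YT, a human NK-like cell line, transduced with lentiviral vectors. Whether all groups came from the same stock of the line is not given in the sources used here. CTRL cells carried eGFP, hnCD16 cells the high-affinity non-cleavable CD16a, FR1 cells an hnCD16-2B4-DAP10-CD3ζ fusion receptor and FR2 cells an hnCD16-DAP10-CD3ζ fusion receptor. Per the paper's methods, a constitutive promoter drove the receptors, and transduced cells were sorted by eGFP and then expanded. Each of the 4 groups had 3 libraries, 12 in all. The methods describe in vitro data in general as independently repeated, but neither they nor the labels say so of these libraries, so p-values measure the spread between them, which may be technical.

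HLA class II molecules are pairs of an alpha and a beta chain that present peptides from endosomes to CD4 T cells. CD74, the invariant chain, escorts the new pair to the endosome, where HLA-DM exchanges its last fragment for a peptide. CIITA does not bind DNA itself. It is recruited to the S, X and Y boxes of class II promoters by RFX, CREB and NF-Y, and interferon-γ induces it in many cell types. B cells and dendritic cells carry class II constitutively, and human NK cells can acquire it on activation.

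The promoter letters that these factors read are shown because all members rose together in the results below. RefSeq promoter entries (GRCh38.p14, 250 bases before the start searched) were matched for 8 of the 10 members. CIITA and HLA-DRA had no entry. Capitals mark 2 sets of letters: ACNGATG, the end of an X box, drawn up after the members' sequences were seen, and ATTGG, the Y-box core, or its reverse complement CCAAT. Each line runs 5′ to 3′ on the strand of the gene.
HLA-DRB1, chr6:32589880-32589939, minus strand: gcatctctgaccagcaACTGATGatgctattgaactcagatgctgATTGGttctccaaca
HLA-DQB1, chr6:32666731-32666790, minus strand: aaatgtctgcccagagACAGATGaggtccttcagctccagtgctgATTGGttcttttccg
HLA-DMA, chr6:32953162-32953222, minus strand: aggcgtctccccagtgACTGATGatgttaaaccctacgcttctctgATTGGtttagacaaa
HLA-DMB, chr6:32941061-32941128, minus strand: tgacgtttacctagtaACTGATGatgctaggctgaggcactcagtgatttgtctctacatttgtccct
HLA-DQA1, chr6:32637303-32637352, plus strand: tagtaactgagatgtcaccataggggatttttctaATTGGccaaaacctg
HLA-DPB1, chr6:33075856-33075905, plus strand: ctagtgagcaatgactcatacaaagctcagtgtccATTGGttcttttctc
CD74, chr5:150412949-150412998, minus strand: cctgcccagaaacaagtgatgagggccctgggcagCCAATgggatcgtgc

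ACNGATG, searched on both strands, was in 2231 of 35116 promoter entries (6.35%), and ATTGG on either strand in 32% of entries. An ATTGG lying 15 to 30 bases downstream of ACNGATG on the gene's strand was found in 19 entries (0.0541%). Among them were 3 members, HLA-DRB1, HLA-DQB1 and HLA-DMA, with a gap of 22, 22 and 23 bases, and the related HLA-DRB5 and MR1. Because ACNGATG was drawn up with the members' sequences in view, these shares are no test of its presence in members. HLA-DMB held ACNGATG without ATTGG at that spacing, and the 2 entries of HLA-DPA1 held neither set. HLA-DQA1, HLA-DPB1 and CD74 held ATTGG or CCAAT without that pair, which says only that the letters are not in these windows.

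In GENCODE v44 on GRCh38, 8 members lie on chromosome 6 between 32439878 and 33089696. CIITA lies on the plus strand at chr16:10866222-10943021, and CD74 on the minus strand at chr5:150401637-150412969.

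The libraries held 17714550 to 18729013 counts, and 3 counts, the floor used here, equal 0.149 to 0.174 CPM. FCGR3A, which is part of each receptor, had 0 counts in all CTRL libraries, 453 to 480 in hnCD16 libraries, 559 to 567 in the FR1 libraries and 1012 to 1132 in those of FR2. FR1 and FR2 stood apart from CTRL and hnCD16 over the whole transcriptome. Of 13657 genes tested, 38.3% were DEGs in FR1 against hnCD16 and 0.527% in hnCD16 against CTRL. Markers of the labelled NK-like cell differed too, with 6 of 10 tested higher and 2 lower in FR1 against hnCD16. NCR1 had 0 to 5 counts in CTRL and hnCD16 and 436 to 535 in FR1 and FR2, and PRF1 had 5 to 13 against 6854 to 9722. NCR3 (101 to 109 against 0 to 17) and CD7 (535 to 646 against 13 to 25) ran the other way, and KLRD1 had 202 to 267 against 225 to 282. Of 6 T cell markers tested, 5 were lower and 1 was higher. CD3D, a T cell receptor subunit, had 7757 to 9903 counts in CTRL and hnCD16 and 0 to 3 in FR1 and FR2, while CD28, a costimulatory receptor, had 51 to 74 and 1572 to 2258. The receptor, any difference in stock and these differences between the cells cannot be told apart, and every comparison of a fusion receptor group with CTRL or hnCD16 carries them. In bulk RNA, more cells of a type and more RNA per cell also cannot be told apart.

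CIITA, the transactivator, was about 10 times higher in FR1 and 15 times higher in FR2 than in hnCD16. Its counts were 179, 166 and 188 in CTRL, 160, 158 and 146 in hnCD16, 1394, 1457 and 1480 in FR1, and 2237, 2327 and 2282 in FR2. Every FR2 library was above every FR1 library, and both groups lay far above the other 6 libraries. How many of all genes separate in this way was not counted. By edgeR's quasi-likelihood test with Benjamini-Hochberg adjustment, the log2 fold change was 3.32 ± 0.0635 (SE, adjusted p = 3.55e-18) for FR1 against hnCD16. For FR2 against hnCD16 it was 3.95 ± 0.0628 (adjusted p = 3.10e-19). Against CTRL the folds were 9.30 in FR1 and 14.4 in FR2. Between hnCD16 and CTRL the log2 difference was -0.10 (adjusted p = 0.394). CIITA was thus above the floor in every library, including those where most class II chains had only a few counts.

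The DR pair went from a few counts to 3271 or more in each FR1 and FR2 library. HLA-DRA, the invariant DR alpha chain, had 2, 1 and 9 counts in CTRL, 6, 4 and 4 in hnCD16, 9478, 9477 and 9464 in FR1, and 14237, 14523 and 13892 in FR2. HLA-DRB1, the main DR beta chain, had 1, 1 and 3 counts in CTRL, 2, 2 and 4 in hnCD16, 3635, 3271 and 3560 in FR1, and 4974, 4996 and 4518 in FR2. For both genes the FR1 and FR2 libraries did not overlap with the other 6, nor with each other. The share of all genes without overlap was not counted. Of all genes tested, 18.7% were called higher in FR1 and 19.6% in FR2 against hnCD16, and 18.5% were lower in FR1 than in FR2 by adjusted p alone. Since the low groups held so few reads, folds are given as ratios of summed counts over library size with exact (Clopper-Pearson) 95% intervals, which cover counting error only. For HLA-DRA the ratio to hnCD16 was 2171 (1294 to 3972) in FR1 and 3201 (1908 to 5856) in FR2. For HLA-DRB1 it was 1399 (710.0 to 3242) and 1903 (965.5 to 4408).

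The DP and DQ chains, which form the other classical class II molecules, followed. HLA-DPA1 had 7, 2 and 4 counts in CTRL, 4, 5 and 2 in hnCD16, 11386, 11299 and 11671 in FR1, and 16096, 16523 and 15324 in FR2. HLA-DPB1 had 1, 0 and 1 counts in CTRL, 4, 3 and 5 in hnCD16, 2296, 2324 and 2325 in FR1, and 2991, 3181 and 2986 in FR2. Both passed the test in each comparison of a fusion receptor group with the groups that lack one. HLA-DQB1 had 0, 0 and 1 counts in CTRL, 1, 1 and 0 in hnCD16, 1010, 975 and 1038 in FR1, and 1612, 1742 and 1453 in FR2. HLA-DQA1 had 6, 12 and 20 counts in CTRL, 19, 7 and 15 in hnCD16, 320, 296 and 369 in FR1, and 1074, 1177 and 1088 in FR2. HLA-DQA1 was the classical chain with the smallest rise, with a log2 fold change against hnCD16 of 4.67 ± 0.200 (SE, adjusted p = 3.03e-13) for FR1 and 6.41 ± 0.171 (adjusted p = 3.15e-16) for FR2.

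The peptide-loading genes were not at the floor in CTRL and hnCD16. HLA-DMA had 82, 87 and 57 counts in CTRL, 69, 74 and 86 in hnCD16, 1890, 1832 and 1886 in FR1, and 2309, 2266 and 2185 in FR2. HLA-DMB had 16, 17 and 14 counts in CTRL, 24, 15 and 15 in hnCD16, 622, 572 and 571 in FR1, and 986, 922 and 939 in FR2. Against hnCD16 the fold was 26.2 for HLA-DMA and 34.7 for HLA-DMB in FR1, and 31.0 and 55.0 in FR2. The HLA-DMA reads of hnCD16 fell mostly on another copy of its transcript than those of FR1 and FR2, as given below. CD74 had 5, 3 and 7 counts in CTRL, 8, 6 and 9 in hnCD16, 5730, 5242 and 5885 in FR1, and 10485, 10483 and 9545 in FR2. Its ratio to hnCD16 was 784.0 (522.3 to 1237) in FR1 and 1394 (928.8 to 2199) in FR2.

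**Figure D1:**
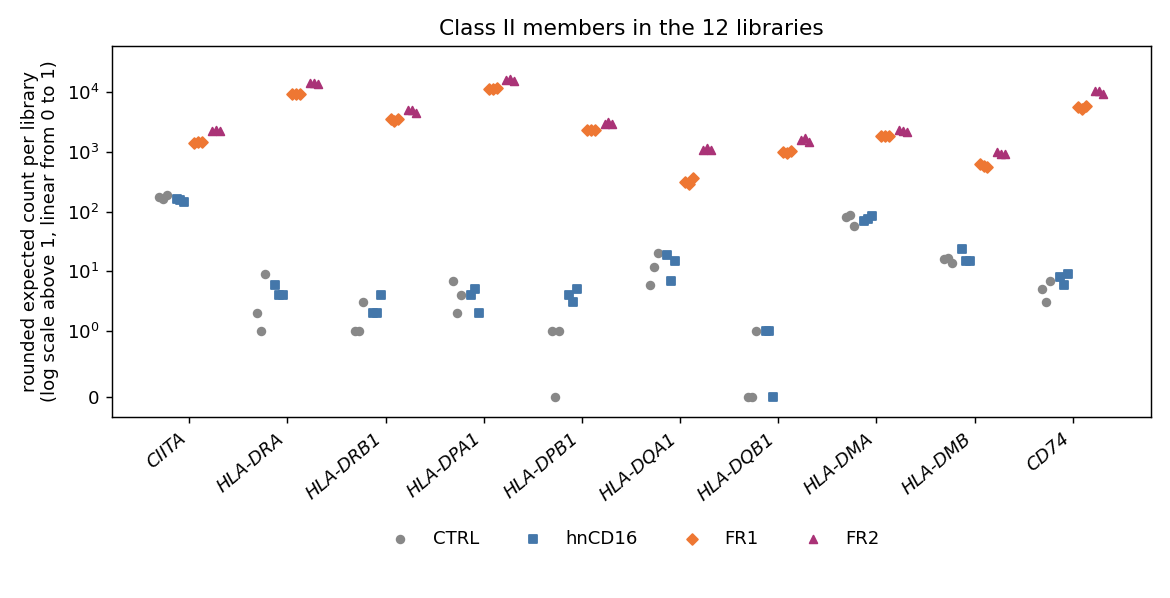
Rounded expected count (vertical axis, log scale above 1) of each member in each library, with 3 points per group. All FR1 and FR2 points lie above all CTRL and hnCD16 points of the same gene, and CIITA and HLA-DMA are the members with the highest CTRL and hnCD16 counts.

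All 10 members were DEGs, higher in FR1 and in FR2, against hnCD16 and against CTRL. Members at 0 to 9 counts in CTRL and hnCD16 passed the count filter only through FR1 and FR2, so being tested already required a high level there. Of all genes tested, 18.7% were called higher in FR1 and 19.6% in FR2 against hnCD16, and 18.3% and 18.7% against CTRL. The members' median log2 fold change against hnCD16 was 9.41 for FR1 and 10.01 for FR2, beside medians of -0.01 and -0.03 over all genes tested. The 4 comparisons share their samples and are not independent of each other. Together the members took 0.00161% ± 5.84e-05 of CTRL counts, 0.00153% ± 6.21e-05 of hnCD16 counts, 0.204% ± 0.00388 of FR1 counts and 0.315% ± 0.00838 of FR2 counts (SD, n = 3).

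Markers of cell types that carry class II constitutively were examined in the same libraries. Of 8 B cell markers listed, 6 were in the table, with a summed level of 9.56 to 14.9 CPM in CTRL and hnCD16, 38.3 to 42.4 CPM in the FR1 libraries and 45.3 to 47.4 CPM in those of FR2. PAX5, at 656 to 828 counts, made up most of that in FR1 and FR2, while CD79A had 2 to 7 counts there. The 8 dendritic cell markers summed to 58.1 to 69.3 CPM in CTRL and hnCD16, between 13.7 and 14.7 CPM in FR1 and up to 22.0 CPM in FR2. CD1C was at 0 in FR1 and FR2, and LAMP3 fell from 264 to 308 counts to 5 to 19. CCR7 stayed, with 227 to 318 counts in CTRL and hnCD16 and 220 to 375 in FR1 and FR2, and made up most of the sum there. The 8 monocyte markers summed to 4.85 to 6.57 CPM in CTRL and hnCD16 and 7.52 to 12.7 CPM in FR1 and FR2. CD14 and CD163 had 0 or 1 counts each in FR1 and FR2, while CSF1R (6 to 22 counts in CTRL and hnCD16, 30 to 103 in FR1 and FR2) and ITGAM (3 to 7 and 25 to 41) were called higher. The 12 NK cell markers summed to 65.6 to 74.9 CPM in CTRL and hnCD16 and 1386 to 1483 CPM in FR1 and FR2, with TYROBP at 0 in FR1 and FR2. The 6 of 8 T cell markers in the table summed to 661.1 to 804.8 CPM in CTRL and hnCD16 and to 128.4 to 169.2 CPM in the fusion receptor groups. The part of these marker differences in the class II result was not tested.

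Levels of different genes were compared per length, in TPM. HLA-DRA was the highest member in both fusion receptor groups, at 773.6 ± 5.18 TPM in FR1 and 1149 ± 10.3 TPM in FR2 (SD, n = 3). HLA-DPA1 (673.7 and 930.9 TPM in FR1 and FR2), CD74 (382.9 and 685.1 TPM), HLA-DRB1 (288.5 and 395.2 TPM) and HLA-DMA (172.9 and 206.3 TPM) followed in that order in both. CIITA was the lowest, at 15.4 ± 0.646 TPM in FR1 and 22.2 ± 0.900 TPM in FR2. In FR2 HLA-DQB1 and HLA-DQA1, at 97.8 ± 7.44 and 97.7 ± 4.13 TPM, did not differ beyond their spread.

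Partner chains were not at equal levels. HLA-DPA1 was 11.8 ± 0.206 times HLA-DPB1 in FR1 and 12.5 ± 0.312 times in FR2. HLA-DRA was 1.41 ± 0.0529 times the summed HLA-DRB genes in FR1 and 1.51 ± 0.0618 times in FR2, an exact permutation p of 0.2. HLA-DQA1 was 0.485 ± 0.0381 times HLA-DQB1 in FR1 and 1.0 ± 0.0466 times in FR2, and the 3 libraries of one group did not overlap with those of the other. HLA-DMA was 3.95 ± 0.165 times HLA-DMB in FR1 and 2.95 ± 0.0889 times in FR2. The exact two-sided permutation p was 0.1 for the DP, DQ and DM ratios, the smallest that 3 against 3 libraries allow, so no ratio could pass 0.05.

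**Figure D2:**
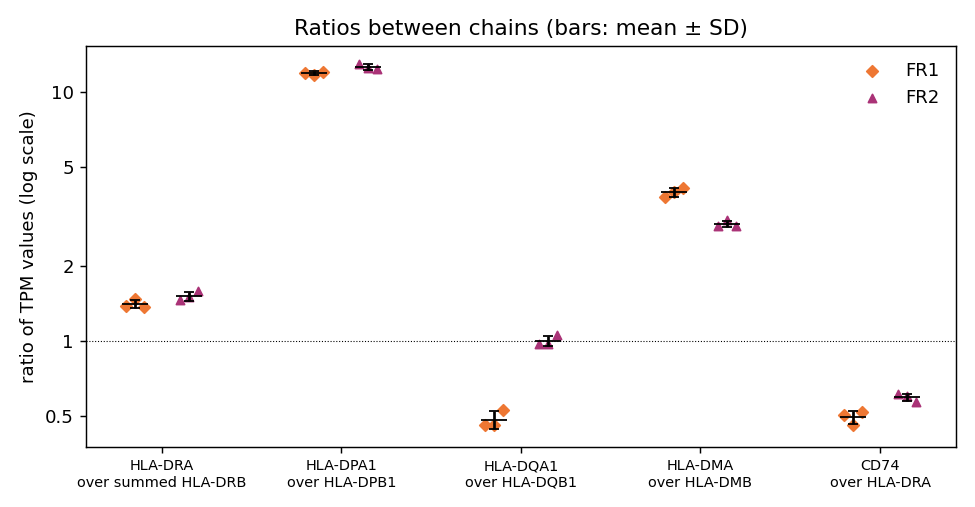
Ratio of TPM values between partner genes (vertical axis, log scale) in the 3 FR1 and 3 FR2 libraries, with the mean and SD as bars. The HLA-DQA1 to HLA-DQB1 ratio was 0.485 in FR1 and 1.0 in FR2, while the HLA-DPA1 to HLA-DPB1 ratio was near 12 in both (11.8 and 12.5).

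FR1 and FR2, which differ by the 2B4 domain, were then compared, a contrast that does not cross the divide from CTRL and hnCD16. All 10 members were lower in FR1, with an adjusted p of at most 0.05 each, where 18.5% of all genes tested were lower by that measure. With the fold threshold only HLA-DQA1 was called, against 1.49% of all genes called lower. Its log2 fold change was -1.74 ± 0.102 (SE, adjusted p = 4.06e-09), a level 3.33 times higher in FR2. CD74 was 1.78 times (adjusted p = 1.71e-08), HLA-DMB 1.58 times, HLA-DQB1 1.56 times and CIITA 1.55 times (adjusted p = 1.07e-07) higher in FR2. HLA-DRA was 1.47 times, HLA-DPA1 1.37 times, HLA-DRB1 1.36 times and HLA-DPB1 1.29 times higher. HLA-DMA differed least, at 1.18 times (adjusted p = 0.00564). With limma on log2(TPM + 0.1), 5 of the 10 had an adjusted p of at most 0.05, all 10 again being lower in FR1. The median log2 difference of the members was -0.60, beside -0.003 over all genes tested. FCGR3A counts, as given above, were also higher in FR2 than in FR1, and their part in this difference was not tested.

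**Figure D3:**
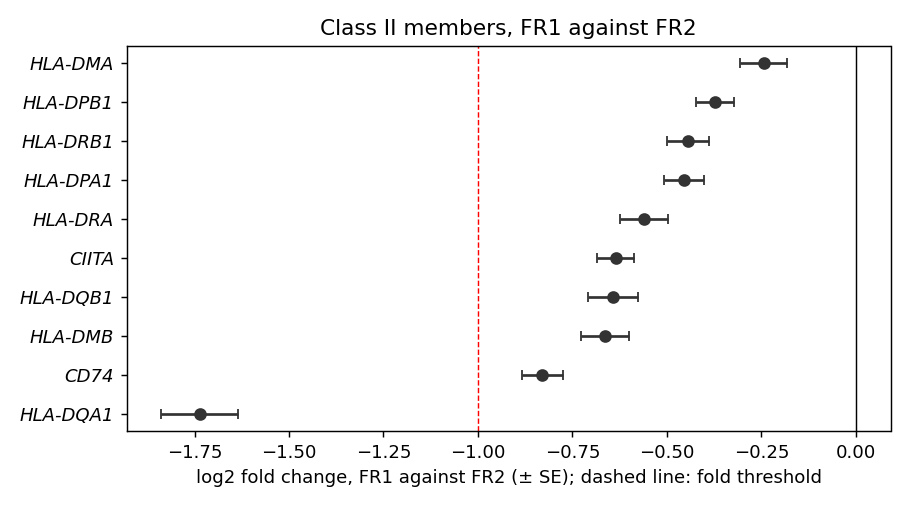
Log2 fold change of each member in FR1 against FR2 (horizontal axis) with its SE as the bar. All 10 points lie below 0, from -0.24 for HLA-DMA to -1.74 for HLA-DQA1, the one past the dashed line of the fold threshold.

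Between hnCD16 and CTRL, 1 member was called, HLA-DPB1, beside 0.212% of all genes called higher. It rested on 12 counts over the hnCD16 libraries against 2 over the CTRL libraries, a ratio of 6.42 with a counting interval of 1.43 to 59.1. Without CTRL replicate 2, the library with 0 counts, it was no longer called (log2 fold change 1.93). The other 9 members had log2 differences from -0.14 to 0.86 and adjusted p-values of 0.223 or more.

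CIITA transcripts were compared next, since CIITA is known to be transcribed from several promoters and with several ends. Of the 11 transcripts, 8 were tested, and 7 were called higher in FR1 and in FR2 against both hnCD16 and CTRL. Beside these, 7.52% of 56640 transcripts tested were called higher in FR1 and 7.78% in FR2 against hnCD16, and 7.39% and 7.44% against CTRL. XM_011522484, the remaining one, had 0 counts in 1 FR1 and 1 FR2 library, with an adjusted p of 0.142 and 0.148 against hnCD16. Of the tested transcripts, only NM_001286403 and NM_000246 had at least 10 counts in every library. The others passed the count filter only through FR1 and FR2, so being tested already required a high level there. NM_001286403 had 113.9, 128.9 and 147.1 expected counts in CTRL, 117.6, 127.1 and 90.5 in hnCD16, 708.6, 677.7 and 710.1 in FR1, and 726.1, 896.8 and 1265 in FR2. NM_000246 had 56.9, 29.4 and 37.4 in CTRL, 36.4, 21.3 and 52.5 in hnCD16, 294.9, 362.4 and 340.4 in FR1, and 967.9, 947.4 and 458.6 in FR2. In FR2 replicate 3 the order of this pair was the reverse of that in FR2 replicates 1 and 2. NM_001286402 had 0, 2 and 0 expected counts in CTRL and 0 in all hnCD16 libraries, but 260.6, 244.8 and 233.8 in FR1 and 317.0, 311.5 and 273.1 in FR2. XM_011522485 had at least 3.06 and at most 10 in CTRL and hnCD16, up to 68.9 in FR1 and up to 140.3 in FR2. XM_011522490, XM_024450280 and XM_011522486 had none in CTRL and hnCD16 and 3.36 to 53.9 in the fusion receptor libraries, and XM_011522491, which was not tested, had at most 1.0 and then 3.54 to 12.2. NM_001379334 and XM_024450281 were not tested either, with at most 21.6 and 2.5 in any library.

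The make-up of CIITA RNA therefore differed between the groups. NM_001286403 held 73.2% of CIITA counts in CTRL and 71.9% in hnCD16. Its share was 48.4% in FR1 and 42.1% in FR2. By TPM, which divides by length, the CTRL and hnCD16 shares were 68.6% and 66.5%, and those of FR1 and FR2 were 30.9% and 29.0%. For shares of counts the exact two-sided permutation p was 0.1, the smallest possible, for FR1 and for FR2 against hnCD16, and 0.4 for FR1 against FR2. Summed with NM_000246, a grouping made after the values were seen, the share was 93.7% to 98.4% over the CTRL and hnCD16 libraries, 71.0% to 72.0% over the FR1 libraries and 75.5% to 79.3% over the FR2 libraries. This pair carried 148 and 167 counts per TPM, against 39.5 to 63.9 for the other 9 transcripts, which measures a longer effective length. NM_001286402 held 17.1% of CIITA counts in FR1 and 13.2% in FR2, but 33.8% and 28.2% by TPM, close to the TPM shares of NM_001286403. No CIITA transcript was called between FR1 and FR2 or between hnCD16 and CTRL by edgeR, beside 0.254% and 0.162% of all transcripts tested. Of the 8, 1 and 0 had an unadjusted p under 0.05. XM_011522484, XM_011522486, XM_011522490 and XM_024450280 had 0 counts in all CTRL and hnCD16 libraries, so they could not be called between those groups. RSEM divides reads among transcripts that share most of their exons, so these shares are estimates.

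**Figure D4:**
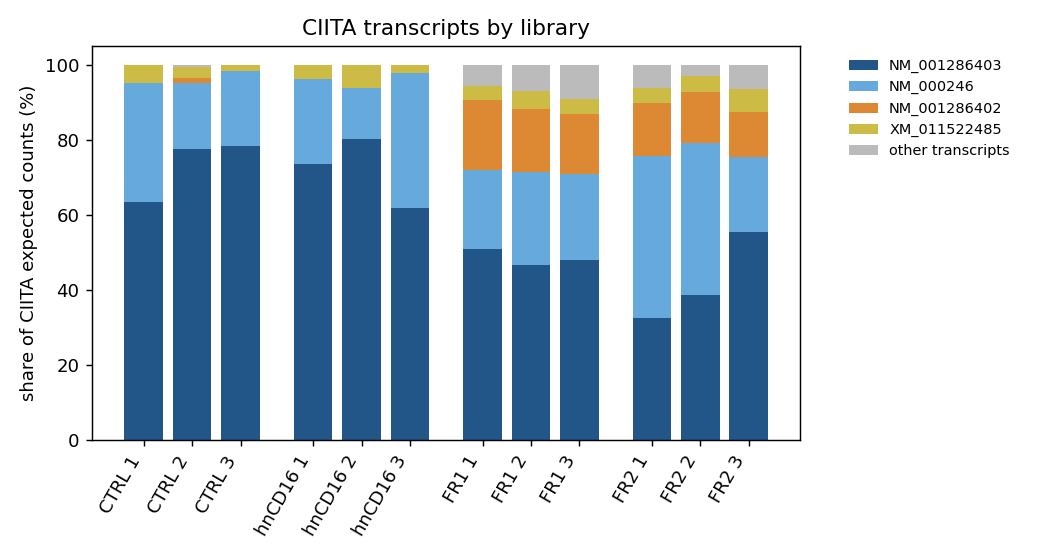
Share of CIITA expected counts (vertical axis, %) held by each transcript in each of the 12 libraries. NM_001286402 is near absent in CTRL and hnCD16 and holds 17.1% in FR1 and 13.2% in FR2 on average.

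For HLA-DMA, HLA-DQA1 and CD74, chosen after the values were seen, the reads of CTRL and hnCD16 were divided among transcripts unlike those of FR1 and FR2. This was not seen for all members. HLA-DRA reads of every group fell, on average, mainly on copies 4 to 7 of NM_019111, and HLA-DRB1 reads on NM_002124 and NM_001243965. With 1 to 9 HLA-DRA and 1 to 4 HLA-DRB1 counts per CTRL and hnCD16 library, likeness between the groups cannot be read from these. HLA-DMB reads differed in part. Copies 4, 5 and 7 of its transcript NM_002118 each had 2 to 4 counts per CTRL and hnCD16 library, and 0 in FR1 and at most 23 in FR2. HLA-DPB1, HLA-DPA1 and HLA-DQB1, at 0 to 5, 2 to 7 and 0 to 1 counts in CTRL and hnCD16, had too few reads to compare. The transcript table lists 7 numbered copies of the HLA-DMA transcript NM_006120. Copy 4 took 57 to 87 counts in CTRL and 60 to 86 in hnCD16, but no more than 14 in FR1 and 25 in FR2. The other 6 copies, summed, took 0 in CTRL and 0 to 9 in hnCD16, but 1832 to 1876 in the FR1 libraries and 2185 to 2309 in those of FR2. HLA-DQA1 reads of CTRL and hnCD16 all fell on XM_006715079, while in FR1 and FR2 they were divided between it (40.5% to 53.0%) and NM_002122. CD74 reads in FR1 and FR2 fell mainly on NM_004355 (91.1% to 93.4%), on which no CTRL or hnCD16 library had a count. Those libraries held only 3 to 9 CD74 counts each. The sources used here do not say what the numbered copies are, and a read that matches several is divided among them.

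Other class II genes behaved alike in part. HLA-DRB3 had 0 counts in all CTRL libraries, 0 to 2 in hnCD16, 1415 to 1465 in the FR1 libraries and 1773 to 1968 in those of FR2, at least 547.0 times higher in FR1 than in CTRL against a floor of 3 counts per library. HLA-DRB5 went from 1 to 4 counts up to 1574 to 1682 in the FR1 libraries and 2259 to 2577 in those of FR2. HLA-DRB4 stood out in CTRL, where it held 93.4% of the summed HLA-DRB level in TPM, and it rose to a smaller extent (log2 fold change 1.80 for FR1 and 2.28 for FR2 against hnCD16). HLA-DOA, a chain of the HLA-DM inhibitor HLA-DO, rose by 4.82 and 5.66 on the log2 scale. Its partner HLA-DOB was not called, at 37 to 50 counts in CTRL and hnCD16 and 14 to 26 in FR1 and FR2. HLA-DQA2 and HLA-DQB2 had 12 counts at most. DRB genes are near-identical and their reads can be exchanged, so their values are uncertain.

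The wider pathway list held 67 genes, 62 of them in the table and 55 tested. Against hnCD16, 22 were called higher and 12 lower in FR1, and 22 higher and 11 lower in FR2, where 38.3% and 39.5% of all genes were called in either direction. Against CTRL, 21 were higher and 12 lower in each, where the share of all genes was 38% in FR1 and 38.2% in FR2. Against hnCD16 the median log2 fold change was 0.27 for FR1 and 0.48 for FR2. Between hnCD16 and CTRL, 0 of 55 were called by edgeR and 0 by DESeq2, with 32 at an unadjusted p under 0.05.

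Of the 7 subunits that assemble on class II promoters, 1 rose and 2 fell in FR1 against hnCD16. RFX5, the DNA-binding subunit of RFX, rose (log2 fold change 1.21), and RFXAP, its partner, fell by 1.16 on the log2 scale. NFYA, the subunit of NF-Y that recognizes the Y box, fell too (log2 fold change -1.01). The remaining 4, RFXANK, NFYB, NFYC and CREB1, were not called, with log2 differences from -0.84 to -0.21. Of the 7 coactivators, KAT2B and NCOA1, both linked to histone acetylation, rose (2.14 and 2.13 in FR1), and 5 were not called.

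Inducers of CIITA split, with 5 of 11 tested higher and 1 lower in FR1 and 6 higher and 1 lower in FR2 against hnCD16. IFNG, which encodes interferon-γ, had 0 to 2 counts in CTRL and hnCD16, 3965 to 4478 in the FR1 libraries and 3917 to 4011 in those of FR2. IRF2 rose against hnCD16 by 2.14 (FR1) and 2.24 (FR2) on the log2 scale. JAK1 rose (1.13 and 1.09), while IFNGR2, a receptor chain, fell by 3.08 and 2.48 on the log2 scale, from 24 to 34 counts in hnCD16 to 1 to 5 in FR1 and FR2. IRF1 was not called, at 0.72 and 0.78. IRF4, a lymphoid transcription factor, had 5 to 13 counts in CTRL and hnCD16 and 12405 to 13428 in FR1 and FR2. IFNG did not follow the order of the class II genes between the fusion receptors, with a log2 difference of 0.10 (adjusted p = 0.227) for FR1 against FR2. By adjusted p alone, 2 of 11 tested inducers were lower in FR1 than in FR2 and 0 were higher, where 18.5% of all genes tested were lower. IFNGR1, a receptor chain, had 27.1 to 30.6 CPM in FR1 and 38.1 to 43.0 CPM in FR2. The part of the inducers in the class II difference was not tested.

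Of 6 repressors, 2 rose and 1 fell in FR1 and in FR2 against hnCD16. PRDM1, a known repressor of CIITA, had 0 to 2 counts in CTRL and hnCD16 and 1152 to 1320 in FR1 and FR2. SOCS1, a brake on JAK signalling, rose by 6.42 and 6.66 on the log2 scale. DNMT3B, a DNA methyltransferase, fell by 2.52 and 1.82 on the log2 scale.

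Genes that prepare peptides moved both ways. Of 8 tested, 4 were higher and 3 lower in FR1 and in FR2 against hnCD16. CTSS, the protease that trims CD74 in antigen-presenting cells, rose by 5.95 and 5.85, LGMN by 1.71 and 2.11 and SPPL2A by 1.68 and 1.44 on the log2 scale. CTSH had 900 to 1140 counts in CTRL and hnCD16 and 4 to 12 in FR1 and FR2. IFI30, the lysosomal thiol reductase, had 36 to 50 and 0 to 3 counts. Of 4 genes listed for surface turnover, 1 was higher and 2 lower in FR1 against hnCD16, and 0 higher and 1 lower in FR2. MARCHF8, a ubiquitin ligase that removes class II from the surface, had 294 to 432 counts in CTRL and hnCD16 and 4 to 7 in FR1 and FR2. In the same order, MARCHF1 had 167 to 314 and 158 to 200 counts and CD83 272 to 349 and 110 to 160. CANX had 12074 to 14240 and 21700 to 28634. Among partners, LAG3, a class II receptor, rose (6.66 and 7.04). CD4, CD44 and CXCR4, the last 2 being partners of CD74 at the surface, fell in FR1, with log2 fold changes of -7.61, -10.74 and -10.32. NLRC5, which acts on class I promoters as CIITA does on class II, rose by 4.92 and 4.98, and B2M by 2.74 and 3.01 on the log2 scale.

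**Figure D5:**
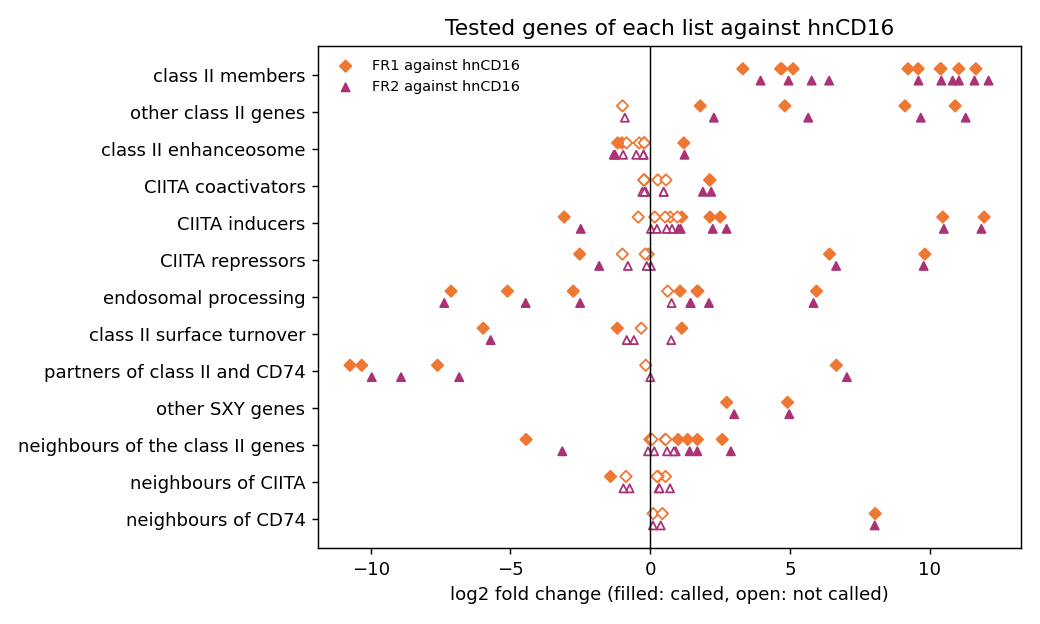
Log2 fold change (horizontal axis) of each tested gene of each list in FR1 (diamonds) and FR2 (triangles) against hnCD16, filled where called. The members lie between 3.32 and 12.11, while most other lists hold genes on both sides of 0.

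Neighbouring genes were read to see whether the whole region moved. Of 9 tested neighbours of the class II genes, 4 were called higher and 1 lower in FR1 against hnCD16 and 3 higher and 1 lower in FR2, beside the 38.3% and 39.5% of all genes called in either direction. TAP1, which loads class I, was higher (2.58 and 2.89), and NOTCH4 was lower, with 49 to 77 counts in CTRL and hnCD16 and 0 to 7 in FR1 and FR2. BRD2 and RING1, which lie in the same region, were not called, at -0.01 and 0.07 in FR1. Of 5 tested genes listed as neighbours of CIITA, RMI2 alone was called in FR1 and it was lower, and 0 were called in FR2. SOCS1, listed with the repressors and not here, lies within the span of RMI2 at chr16:11254417-11256204. It rose, from 3 to 10 counts in CTRL and hnCD16 to 377 to 601 in FR1 and FR2. NDST1, near CD74, had 0 to 3 counts in CTRL and hnCD16 and 266 to 297 in FR1 and FR2, while RPS14 and TCOF1 were not called.

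Over the 12 libraries, the genes whose log2(CPM + 1) was most like that of CIITA were ZDHHC14, ZCCHC24, RALB, OPTN and ITGB4. Each had a Pearson r of 0.999, but 741 of 12141 genes had an r of 0.99 or more. For the mean of HLA-DRA, HLA-DPA1, HLA-DPB1, HLA-DMA and HLA-DMB they were APOBEC3H, BMF, STC1, HLA-DRB3 and ZFYVE28, with 994 genes at an r of 0.99 or more. The points share the divide between the 2 pairs of groups, so the values describe that divide in the main.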

How the data were processed

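Cells labelled as YT, in 4 groups (CTRL, hnCD16, FR1, FR2), were sequenced as bulk RNA, with 3 libraries each. The authors filtered reads with SOAPnuke. The submitters' processing notes name HISAT2 2.1.0, Bowtie2 2.3.4.3 and the build GRCh38.p13. The authors deposited expected counts from RSEM 1.3.1 together with TPM values computed by the authors from the same reads. Whether strand was used is not given in the sources used here. The 48 FPKM and normalized count columns of the libraries were not used, nor were averages.

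Expected counts were rounded and tested with edgeR 4.0.16 in R 4.3.3 (quasi-likelihood, TMM, filterByExpr, 1 fit of all groups, Benjamini-Hochberg over all genes tested). A DEG had to change by 1 or more on the log2 scale, in either direction, at an adjusted p up to 0.05, the paper's thresholds. Transcripts were fitted likewise over 56640 tested of 90572. Ratios and shares used exact permutation tests. The step was tested on simulated counts for FR1 against hnCD16 with 13415 genes, where 199 of 200 genes changed by a log2 fold change of 2 were called. The changed genes were drawn above a minimum mean count. The simulated spread was close to the common dispersion of the gene fit (0.00312), not to that of the transcript fit (1.26). Genes near the floor in a group and transcripts were therefore not covered. Library totals were 17714550 to 18729013. Replicate libraries differed by more than sampling noise (chi-square per gene 2.08 to 12.7).

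The members and lists were chosen with earlier results of these data known. All members and CIITA transcripts are named, as are the 5 genes most like CIITA and the class II mean. Listed genes with at least 1 CPM on average could be named, and the others are counted. Coordinates are from GENCODE v44, and promoters from RefSeq. IFNGR2, HLA-DQA2, HLA-DQB2 and markers at or near 0 are named below that level, after their values were seen. Alternatives were DESeq2 1.42.0, limma 3.58.1 on TPM, other scalings and filters, fits of 2 groups, a replicate block, no fold threshold and leaving out each library. The values of 2 genes on these lists are not reported here.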

Additional observations from a re-analysis of the deposited data

How the results depend on the processing

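The members' calls in FR1 and FR2 against hnCD16 and CTRL numbered 10 of 10 under every alternative except the filter of at least 10 counts in every library, which left 3 members to test and called 3. Under that filter 20, 19, 19 and 19 other pathway genes were called in FR1 and FR2 against hnCD16 and in FR1 and FR2 against CTRL, and 2 CIITA transcripts in each, because fewer features were tested. It called 0 members and 0 pathway genes in FR1 against FR2 and 0 members in hnCD16 against CTRL. The HLA-DPB1 call in hnCD16 against CTRL was lost (0 members) with limma on log2(TPM + 1) and log2(TPM + 0.1). The fit of only these 2 groups also called 0 members, but HLA-DPB1 was not among the 4 it tested. Without a fold threshold, 10 members differed between FR1 and FR2, and other pathway genes numbered 53 and 51 (FR1 and FR2 against hnCD16), 53 and 50 (against CTRL), 26 (hnCD16 against CTRL) and 20 (FR1 against FR2). All members tested were lower in FR1 than in FR2 in each setting. By adjusted p alone, a count added after seeing the data, 10 passed in the remaining settings, 9 with limma on log2(TPM + 1), 5 with limma on log2(TPM + 0.1), and 3 of 3 with at least 10 counts in every library. The single other pathway gene in FR1 against FR2, CXCR4, was not called (0) in the fit of 2 groups or with limma on log2(TPM + 1). Leaving out 1 library gave 0 to 1 members in hnCD16 against CTRL (0 without CTRL replicate 2) and 0 to 1 pathway genes in FR1 against FR2 (0 without FR1 replicate 1 or 2 or FR2 replicate 1). In hnCD16 against CTRL, where none of these was called, the sign of HLA-DMA turned with limma (-0.015 and -0.014 at pseudocounts of 0.1 and 1). Leaving out 1 library gave -0.071 to 0.20 for HLA-DMA, -0.168 to 1.63 for HLA-DRA, -0.505 to 0.384 for HLA-DPA1 and -0.117 to 0.67 for HLA-DQA1. By TPM, NM_001286403 held 30.9% of CIITA in FR1 and 29.0% in FR2.

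Same-numbered replicates did not deviate together in every pair (r from -0.102 to 0.404). With the replicate block, members called stayed at 10, 10, 10, 10, 1 and 1 over the 6 comparisons and CIITA transcripts numbered 6 in place of 7 in the comparisons of FR1 and FR2 with hnCD16 and CTRL. With library totals alone the median log2 difference of all genes was -0.219 in place of -0.025 in FR1 against CTRL, -0.174 in place of -0.044 in FR2 against CTRL and -0.121 in place of -0.009 in hnCD16 against CTRL. Members at 0 to 9 counts in CTRL and hnCD16 have folds limited by counting error.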
